A study of Mus musculus with 6 samples.

Results

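The sterol and fatty acid synthesis genes described here are 32 genes picked by symbol from the 30743 rows of an RNA sequencing table of Tri-PyMT cells. They cover the mevalonate steps (7 genes), the squalene and sterol steps (10), the SREBP regulators with a sterol transfer protein (5), acetyl-CoA supply and fatty acid synthesis (4), and the elongases and desaturases (6). The rule names symbols only, all 32 symbols were found, and all 32 passed the filter for testing, 2 or more samples with an FPKM of 1 or higher. FPKM counts fragments scaled to transcript length and to library size, so levels can be set side by side across genes.

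Tri-PyMT is a mouse mammary tumour line derived from the MMTV-PyMT model, in which the polyoma middle T antigen drives tumours of the mammary epithelium. The cells carry a red-to-green fluorescence switch that is thrown once and for good by a Cre recombinase under the promoter of Fsp1 (S100a4), a gene active in mesenchymal cells. A GFP+ cell therefore records past promoter activity and is labelled as having undergone epithelial-mesenchymal transition (EMT), while an RFP+ cell is labelled as not having done so. There were 3 groups of 2 samples: GFP+ cells kept in 4 µM of CTX for 7 days; untreated GFP+ cells; and untreated RFP+ cells. CTX here is 4-hydroperoxy-cyclophosphamide, a cyclophosphamide that acts without liver enzymes. All were grown in medium with 10% serum and sorted by fluorescence. No untreated culture of 7 days is named in the labels, so the drug and the time in culture cannot be told apart. The labels do not say whether replicates 1 and 2 came from separate cultures, and p-values measure only the spread between these samples. In sorted bulk RNA, fewer cells expressing a gene and less RNA per cell cannot be told apart.

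Cells make cholesterol from acetyl-CoA through mevalonate, farnesyl pyrophosphate, squalene and lanosterol, and they make fatty acids from acetyl-CoA through malonyl-CoA. Most of these genes are targets of the SREBP transcription factors, which are made as membrane precursors (Srebf1 and Srebf2), carried to the Golgi by the escort protein SCAP when sterols are low, and held back by the INSIG proteins when sterols are high. SREBP-2 favours the cholesterol genes and SREBP-1 the fatty acid genes. Insig1 is itself a target and acts as negative feedback. Serum supplies lipoprotein cholesterol, and the pathway is known to fall when sterol supply is ample.

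Promoter sequences of 4 members are shown because these genes differed in how their levels ran with the others. Hmgcs1 had the widest range between samples, Srebf2 codes for the factor, Fasn stands for the fatty acid branch, and Scap went against the rest. Each line gives the 250 bases before the transcription start, 5′ to 3′ on the gene's strand, from RefSeq in the GRCm38.p6 build. Capitals mark matches to the sterol regulatory element letters TCACNCCA and to CCAAT, the letters bound by NF-Y, on either strand.
Hmgcs1, chr13:119690101-119690350, plus strand: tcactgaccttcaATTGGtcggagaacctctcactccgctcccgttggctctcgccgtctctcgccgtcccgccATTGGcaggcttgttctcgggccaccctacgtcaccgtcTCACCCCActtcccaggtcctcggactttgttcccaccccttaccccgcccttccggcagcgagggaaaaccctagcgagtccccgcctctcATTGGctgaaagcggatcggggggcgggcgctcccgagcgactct
Srebf2, chr15:82147019-82147268, plus strand: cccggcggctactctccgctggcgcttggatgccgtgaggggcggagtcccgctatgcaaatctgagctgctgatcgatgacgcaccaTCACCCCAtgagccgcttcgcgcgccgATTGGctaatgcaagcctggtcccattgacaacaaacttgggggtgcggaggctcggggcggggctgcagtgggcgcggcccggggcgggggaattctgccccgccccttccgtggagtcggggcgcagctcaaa
Fasn, chr11:120824548-120824797, minus strand: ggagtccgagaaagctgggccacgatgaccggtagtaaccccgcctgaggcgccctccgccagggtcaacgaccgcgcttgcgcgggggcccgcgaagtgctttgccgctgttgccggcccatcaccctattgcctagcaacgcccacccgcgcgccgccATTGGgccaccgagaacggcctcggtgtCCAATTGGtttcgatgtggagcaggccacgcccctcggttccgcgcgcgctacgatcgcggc
Scap, chr9:110333038-110333287, plus strand: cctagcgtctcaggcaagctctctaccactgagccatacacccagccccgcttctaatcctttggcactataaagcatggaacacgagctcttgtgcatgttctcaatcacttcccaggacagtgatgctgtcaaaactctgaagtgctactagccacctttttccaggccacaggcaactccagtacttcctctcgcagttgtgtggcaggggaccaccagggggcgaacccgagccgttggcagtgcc

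Of the 32 genes, 25 had an entry in that table, and Fads1, Fdft1, Fdps, Scd1, Scd2, Sqle and Stard4 had none. TCACNCCA occurred in 2 of the 25, Hmgcs1 (bases 137 to 130 before the start) and Srebf2 (bases 162 to 155), or 8.0% against 4.2% of 27025 genes. CCAAT occurred in 19 of the 25 (76.0%, against 37.5% of all genes), with 3 matches in Hmgcs1, 1 in Srebf2, 3 in Fasn of which 2 overlap, and none at the Scap start shown. GGGCGG, the letters bound by Sp1, occurred in 20 (80.0%, against 35.4%), and CACGTG, an E-box, in 5 (20%, against 6.86%). A gene with several listed starts counted once if any start had a match. These matches describe letters only, and a window without a match says nothing about the factor.

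Sums of FPKM over the table ran between 733478 and 1028710 per sample, and between 11543 and 12866 features reached an FPKM of 1. No read totals are given, so depth is unknown. Untreated GFP+ replicate 1 stood apart in scale: its log2 median-ratio size factor was -0.43, while the other 5 samples lay between 0.03 and 0.15. Each result is therefore also given after median-ratio scaling where the scaling changed it. The CTX pair was much closer than the others: the robust SD of the log2 difference between replicates over 13080 features, after scaling, was 0.0753 for CTX-treated GFP+, 0.359 for untreated GFP+ and 0.29 for untreated RFP+. Without read counts it could not be tested whether the CTX pair differed by more than sampling noise. Of 5 epithelial markers 3 passed, Cdh1, Epcam and Krt14, which were lower in untreated GFP+ than in untreated RFP+ cells (log2 changes -2.28, -2.03 and -1.28; limma adjusted p = 0.0161, 0.0262 and 0.0490), while Krt8 and Krt18 did not (-1.78 and -1.87, adjusted p = 0.0630 and 0.0768). Of 5 mesenchymal markers 1 passed as deposited, Dcn, which was higher (1.97, limma adjusted p = 0.0362), and 3 passed after scaling. S100a4, whose promoter drives the tracer, did not pass (0.91, limma adjusted p = 0.222).

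Most of the 32 genes fell into a common order of samples. Their summed FPKM was 791 and 784 in CTX-treated GFP+ replicates 1 and 2, 2180.3 and 1027 in untreated GFP+ replicates 1 and 2, and 3224 and 1283 in untreated RFP+ replicates 1 and 2. In 28 of the 32 genes both untreated replicate 1 samples lay above both untreated replicate 2 samples, a pattern found in 6.42% of all features tested. In 27 of the 32 both CTX samples lay below all 4 untreated samples, against 11.3% of all features. After median-ratio scaling the counts were 31 (30.5% of all features) and 28 (32.3% of all features). Untreated RFP+ replicate 1 was the highest sample in 31 of the 32 genes as deposited and in 18 after scaling, where untreated GFP+ replicate 1 was highest in 13.

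**Figure D1:**
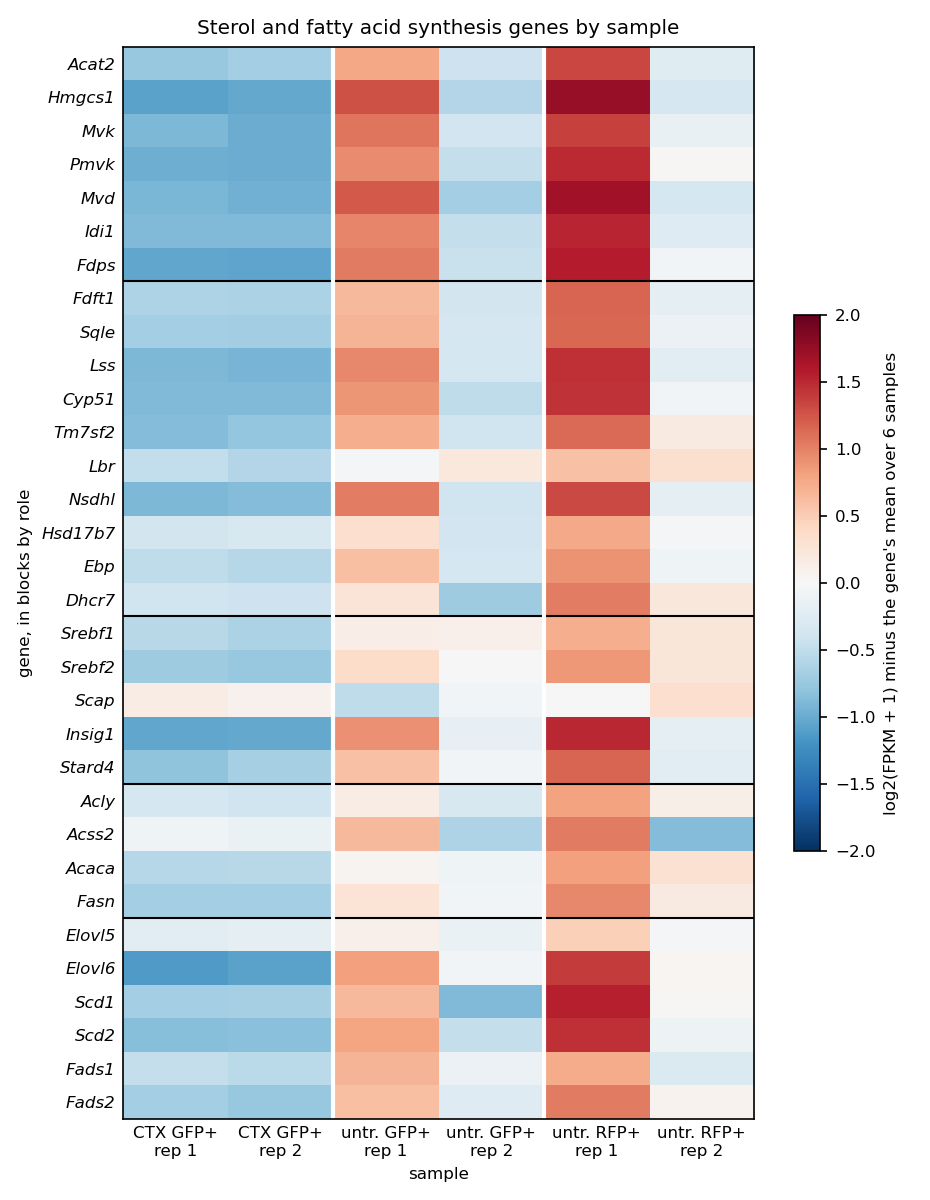
Level of each of the 32 genes (rows, in blocks by role from mevalonate enzymes at the top to elongases and desaturases at the bottom) in each of the 6 samples (columns), as log2(FPKM + 1) minus the gene's mean over the 6 samples. The replicate 1 columns of untreated GFP+ and untreated RFP+ cells are red for nearly every gene, the CTX columns are blue, and Scap is the row that runs the other way.

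The mevalonate enzymes as a group had the widest range between samples. Hmgcs1 makes HMG-CoA, the substrate of the step that commits carbon to mevalonate, and it was at 30.8 and 31.7 FPKM in CTX-treated GFP+ cells, 159 and 43.2 FPKM in untreated GFP+ cells, and 222 and 51.8 FPKM in untreated RFP+ cells, with replicate 1 before replicate 2 here and in all pairs of values that follow. Its CTX samples were the lowest, and its untreated replicate 2 samples were closer to them than to the untreated replicate 1 samples. Acat2, the thiolase that starts the pathway, was at 20.3 and 21.4 FPKM in CTX-treated GFP+ cells, 60.5 and 26.02 FPKM in untreated GFP+ cells, and 89.6 and 29.6 FPKM in untreated RFP+ cells. Mvk, which phosphorylates mevalonate, was at 8.06 and 7.49 FPKM in CTX-treated GFP+ cells, 34.4 and 12.04 FPKM in untreated GFP+ cells, and 42.8 and 14.2 FPKM in untreated RFP+ cells. Its partner kinase Pmvk was at 14.3 and 14.1 FPKM in CTX-treated GFP+ cells, 56.9 and 20.8 FPKM in untreated GFP+ cells, and 84.4 and 29.6 FPKM in untreated RFP+ cells. All 3 genes repeated the order of Hmgcs1, with no overlap between CTX-treated and untreated samples. Mvd, the decarboxylase, was at 7.12 and 6.85 FPKM in CTX-treated GFP+ cells, 34.6 and 8.49 FPKM in untreated GFP+ cells, and 47.7 and 10.9 FPKM in untreated RFP+ cells. Idi1, which isomerises the resulting isoprene unit, was at 27.7 and 27.5 FPKM in CTX-treated GFP+ cells, 103 and 36.9 FPKM in untreated GFP+ cells, and 151 and 43.2 FPKM in untreated RFP+ cells. Fdps joins these units into farnesyl pyrophosphate and was at 56.9 and 55.9 FPKM in CTX-treated GFP+ cells, 242 and 85.8 FPKM in untreated GFP+ cells, and 351 and 113 FPKM in untreated RFP+ cells. Fdps had the highest level of the 7 genes in every sample. The ratio of replicate 1 to replicate 2 over these 7 genes ran between 2.33 and 4.07 in untreated GFP+ cells (median 2.82) and between 2.85 and 4.36 in untreated RFP+ cells (median 3.12), against 0.946 to 1.08 in CTX-treated GFP+ cells.

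The squalene and sterol enzymes followed the same order with smaller ranges. Fdft1, squalene synthase, was at 18.4 and 18.1 FPKM in CTX-treated GFP+ cells, 45.6 and 21.96 FPKM in untreated GFP+ cells, and 65.1 and 24.9 FPKM in untreated RFP+ cells. Sqle, the squalene monooxygenase that is a rate-limiting step after mevalonate, was at 46.3 and 45.8 FPKM in CTX-treated GFP+ cells, 121 and 59.4 FPKM in untreated GFP+ cells, and 166 and 69.001 FPKM in untreated RFP+ cells. Lss, which closes the sterol rings to make lanosterol, was at 10.4 and 10.2 FPKM in CTX-treated GFP+ cells, 40.3 and 15.7 FPKM in untreated GFP+ cells, and 57.4 and 17.2 FPKM in untreated RFP+ cells. In each of these genes the CTX samples lay below all 4 untreated samples. Cyp51, the lanosterol demethylase, was at 17.05 and 16.9 FPKM in CTX-treated GFP+ cells, 59.8 and 22.3 FPKM in untreated GFP+ cells, and 89.5 and 31.003 FPKM in untreated RFP+ cells. Nsdhl, which works in the removal of the methyl groups at carbon 4, was at 8.36 and 8.62 FPKM in CTX-treated GFP+ cells, 34.7 and 12.3 FPKM in untreated GFP+ cells, and 42.7 and 14.2 FPKM in untreated RFP+ cells. Ebp, the sterol isomerase, was at 17.3 and 16.5 FPKM in CTX-treated GFP+ cells, 38.4 and 19.3 FPKM in untreated GFP+ cells, and 47.2 and 23.3 FPKM in untreated RFP+ cells. These 3 genes kept the order as well. Tm7sf2 and Lbr both code for sterol C14 reductases, and LBR is also a receptor of the inner nuclear membrane that binds lamin B. Tm7sf2 was at 2.69 and 2.98 FPKM in CTX-treated GFP+ cells, 10.2 and 4.14 FPKM in untreated GFP+ cells, and 13.9 and 6.69 FPKM in untreated RFP+ cells. Lbr was at 12.02 and 11.2 FPKM in CTX-treated GFP+ cells, 16.9 and 20.2 FPKM in untreated GFP+ cells, and 26.6 and 22.04 FPKM in untreated RFP+ cells. Tm7sf2 went with the other enzymes, whereas the Lbr replicates of each untreated colour differed little and untreated GFP+ replicate 2 was above replicate 1 as deposited. After scaling the order of Lbr in untreated GFP+ cells turned, with replicate 1 at 22.8 and replicate 2 at 19.8. The last 2 genes of this block overlapped between CTX-treated and untreated GFP+ cells. Hsd17b7, which reduces the 3-keto group, was at 8.36 and 8.57 FPKM in CTX-treated GFP+ cells, 14.2 and 8.199 FPKM in untreated GFP+ cells, and 19.3 and 10.8 FPKM in untreated RFP+ cells. Dhcr7, which makes cholesterol in the last step of one branch, was at 19.1 and 19.04 FPKM in CTX-treated GFP+ cells, 30.8 and 15.3 FPKM in untreated GFP+ cells, and 52.9 and 30.3 FPKM in untreated RFP+ cells. In both, untreated GFP+ replicate 2 was the lowest of the 6 samples.

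Among the regulators, the feedback gene Insig1 had the range of an enzyme and the factor genes had narrower ranges. Insig1 was at 14.5 and 14.7 FPKM in CTX-treated GFP+ cells, 59.4 and 27.4 FPKM in untreated GFP+ cells, and 89.7 and 26.9 FPKM in untreated RFP+ cells. Srebf2 was at 36.6 and 35.4 FPKM in CTX-treated GFP+ cells, 78.9 and 60.6 FPKM in untreated GFP+ cells, and 112 and 71.9 FPKM in untreated RFP+ cells. Srebf1 was at 32.5 and 30.8 FPKM in CTX-treated GFP+ cells, 52.9 and 52.04 FPKM in untreated GFP+ cells, and 81.2 and 57.1 FPKM in untreated RFP+ cells. The untreated GFP+ replicates of Srebf1 were nearly equal as deposited, and the CTX samples of all 3 genes lay below every untreated sample. Stard4, which codes for a soluble sterol carrier, was at 7.14 and 7.99 FPKM in CTX-treated GFP+ cells, 20.3 and 12.7 FPKM in untreated GFP+ cells, and 31.03 and 11.3 FPKM in untreated RFP+ cells. Scap, the escort, was at 19.96 and 19.1 FPKM in CTX-treated GFP+ cells, 12.3 and 17.3 FPKM in untreated GFP+ cells, and 18.05 and 22.8 FPKM in untreated RFP+ cells. Scap was the exception among the 32 genes: replicate 2 was above replicate 1 in both untreated colours, and the CTX samples lay above both untreated GFP+ samples and between the untreated RFP+ samples. After scaling the GFP+ samples lay close together, at 18.0 and 17.2 in CTX-treated and 16.6 and 17.0 in untreated cells. The scaled log2 change of Scap between these groups was 0.06 (adjusted p = 0.757 by limma).

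In the fatty acid branch the spread between replicates was narrower for the first enzymes. Acly, which makes cytosolic acetyl-CoA from citrate, was at 42.05 and 40.9 FPKM in CTX-treated GFP+ cells, 60.2 and 43.2 FPKM in untreated GFP+ cells, and 95.8 and 58.8 FPKM in untreated RFP+ cells. Acaca, which makes malonyl-CoA, was at 10.9 and 11.1 FPKM in CTX-treated GFP+ cells, 17.4 and 15.7 FPKM in untreated GFP+ cells, and 30.3 and 20.9 FPKM in untreated RFP+ cells. Fasn, the fatty acid synthase, was at 12.1 and 12.004 FPKM in CTX-treated GFP+ cells, 24.4 and 19.1 FPKM in untreated GFP+ cells, and 39.8 and 22.7 FPKM in untreated RFP+ cells. In all 3 the CTX samples were below all untreated samples, for Acly by a small margin to untreated GFP+ replicate 2. Acss2, which makes acetyl-CoA from acetate, was at 9.56 and 9.18 FPKM in CTX-treated GFP+ cells, 16.5 and 6.26 FPKM in untreated GFP+ cells, and 21.9 and 5.14 FPKM in untreated RFP+ cells. Acss2 had a wide replicate gap, and its CTX samples lay between untreated replicates 1 and 2 of either colour.

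Of the elongases, Elovl6 extends 16-carbon fatty acids and Elovl5 polyunsaturated ones. Elovl6 was at 8.13 and 8.497 FPKM in CTX-treated GFP+ cells, 34.4 and 18.2 FPKM in untreated GFP+ cells, and 51.7 and 19.7 FPKM in untreated RFP+ cells. Elovl5 was at 33.3 and 33.9 FPKM in CTX-treated GFP+ cells, 41.7 and 35.3 FPKM in untreated GFP+ cells, and 54.5 and 37.99 FPKM in untreated RFP+ cells. The CTX samples were the lowest in both, by far more in Elovl6. The desaturases Scd1 and Scd2 put the first double bond into saturated fatty acids and are close paralogs, so their split of reads is uncertain. Scd2 had the highest level of the 32 genes in every sample, at 102 and 104 FPKM in CTX-treated GFP+ cells, 322 and 133 FPKM in untreated GFP+ cells, and 512 and 172 FPKM in untreated RFP+ cells. Scd1 was at 60.3 and 60.8 FPKM in CTX-treated GFP+ cells, 153 and 52.4 FPKM in untreated GFP+ cells, and 286 and 98.4 FPKM in untreated RFP+ cells. In Scd1 untreated GFP+ replicate 2 was the lowest sample, below the CTX samples. Fads1 and Fads2 desaturate polyunsaturated fatty acids. Fads1 was at 26.9 and 25.6 FPKM in CTX-treated GFP+ cells, 61.5 and 34.9 FPKM in untreated GFP+ cells, and 64.1 and 30.6 FPKM in untreated RFP+ cells. Fads2 was at 50.1 and 47.6 FPKM in CTX-treated GFP+ cells, 123 and 67.2 FPKM in untreated GFP+ cells, and 167 and 84.7 FPKM in untreated RFP+ cells. Both had untreated replicate 1 samples highest and CTX samples lowest.

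**Figure D2:**
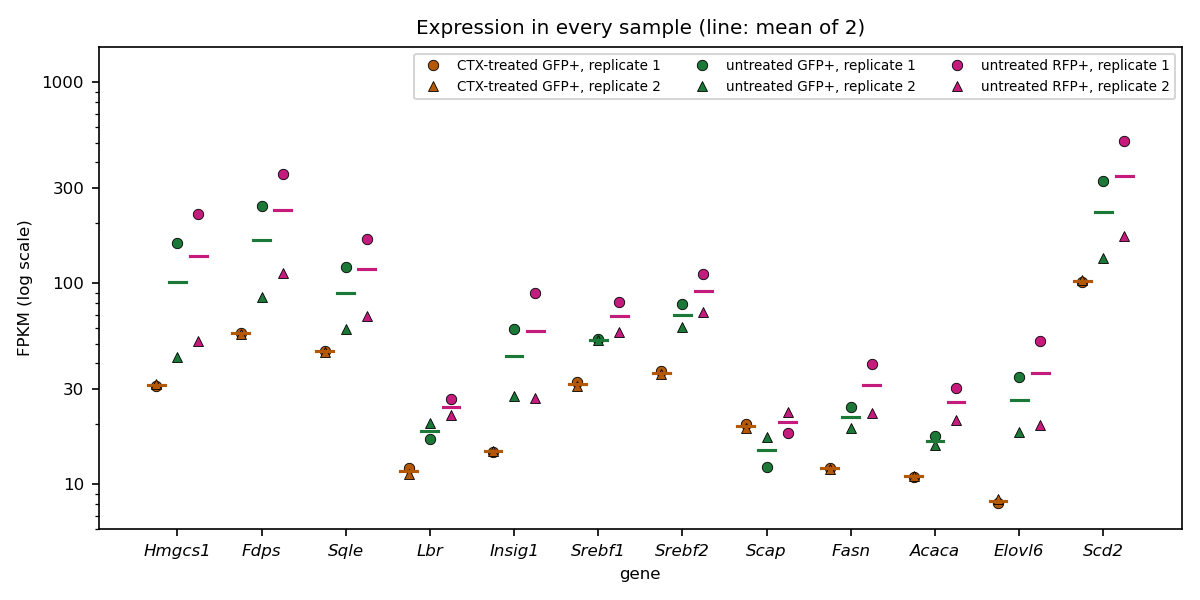
FPKM (log axis) of 12 of the 32 genes in each of the 6 samples, with circles for replicate 1, triangles for replicate 2 and a line at the mean of each group. The CTX-treated replicates coincide, while circles and triangles of untreated GFP+ and untreated RFP+ cells stand apart for Hmgcs1, Fdps, Insig1 and Scd2 and lie close for Lbr and, in untreated GFP+ cells, for Srebf1.

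The difference between replicates was alike in the untreated colours. On the log2(FPKM + 1) scale replicate 1 exceeded replicate 2 in 30 of the 32 genes in untreated GFP+ cells (median 1.02, range -0.46 to 1.91) and in 31 in untreated RFP+ cells (median 1.35, range -0.32 to 2.08). In CTX-treated GFP+ cells the median was 0.01, with a range of -0.14 to 0.09. The medians over all 13080 features were -0.34 in untreated GFP+ and 0.05 in untreated RFP+ cells. After median-ratio scaling, 24 genes (75%) exceeded a difference of 1 in untreated GFP+ cells, against 1.61% of all features, and 19 (59.4%) did so in untreated RFP+ cells, against 0.772%. Across the 32 genes the differences of the colours correlated with Pearson's r = 0.93. The genes share these 4 libraries and known regulators, so r is a description with no p-value. After scaling, Hmgcs1 and Mvd had the widest differences in both colours, and Lbr, Srebf1 and Scap the smallest in size or negative ones. What a replicate number stands for in the untreated samples, such as a culture, a sort or a day, is not stated in the labels, and its part in the result was not tested.

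**Figure D3:**
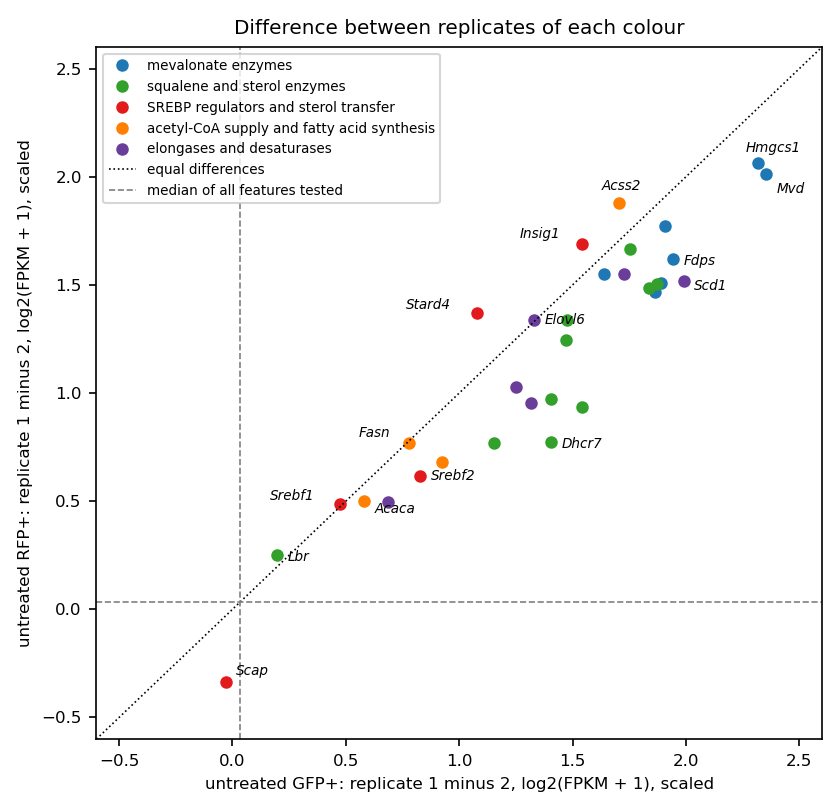
Replicate 1 minus replicate 2 on the log2(FPKM + 1) scale after median-ratio scaling, in untreated GFP+ cells (x axis) and untreated RFP+ cells (y axis), with 1 point for each of the 32 genes coloured by role. The dotted line marks equal differences and the dashed lines the medians of all features (0.03 in both), and 31 of the 32 points lie above and to the right of those medians, with Scap below.

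CTX-treated and untreated GFP+ cells were compared to ask how the EMT population differed after the drug. All but Scap of the 32 genes had a lower mean in the treated cells, with a median log2 change of -0.89, against 0.25 over all features, and 27 of the 32 (84.4%) had both treated samples below both untreated ones, against 12.4% of all features. Scap alone had both treated samples above both untreated ones (3.12%, against 51.9%). None passed the test as deposited (limma, adjusted p under 0.05), where 0.474% of all features were called lower and 12.3% higher. At an unadjusted p under 0.05, 7 genes were lower (21.9%, against 2.75% of all features) and 0 higher (against 27.1%), the lower ones being Lbr, Srebf1, Srebf2, Insig1, Acaca, Fasn and Elovl6. Hsd17b7, Dhcr7, Acss2 and Scd1 overlapped between the groups. After median-ratio scaling the median was -1.24 (-0.05 over all features), and 28 genes (87.5%, against 38.2% of all features) had both treated samples below both untreated ones. By limma 2 genes then fell (6.25%), a share below the 8.04% of all features called lower.

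Those 2 genes were Lbr and Srebf1. Lbr averaged 11.6 ± 0.549 FPKM in CTX-treated GFP+ cells and 18.5 ± 2.31 FPKM in untreated GFP+ cells (SD, n = 2 each), with a log2 change of -0.96, adjusted p = 0.0143 by limma after scaling (log2 change -0.63, SE 0.19, adjusted p = 0.0751 as deposited). Srebf1 averaged 31.6 ± 1.22 FPKM in CTX-treated GFP+ cells and 52.5 ± 0.6102 FPKM in untreated GFP+ cells (SD, n = 2 each), with a log2 change of -1.06, adjusted p = 0.0384 after scaling (log2 change -0.71, SE 0.20, adjusted p = 0.0686 as deposited). Their untreated replicates differed less than those of most other members. Genes with larger mean differences did not pass. Hmgcs1 averaged 31.2 ± 0.6597 FPKM in CTX-treated GFP+ cells and 101 ± 82.1 FPKM in untreated GFP+ cells (SD, n = 2 each), with a log2 change of -1.39 (SE 0.77, adjusted p = 0.282 by limma). Insig1 averaged 14.6 ± 0.144 FPKM in CTX-treated GFP+ cells and 43.4 ± 22.7 FPKM in untreated GFP+ cells (SD, n = 2 each), a log2 change of -1.41 (SE 0.57, adjusted p = 0.156). Both genes had a wide SD in the untreated cells, with replicate 1 far above replicate 2. Srebf2 averaged 36.02 ± 0.821 FPKM in CTX-treated GFP+ cells and 69.8 ± 12.9 FPKM in untreated GFP+ cells (SD, n = 2 each), a log2 change of -0.92 (SE 0.25, adjusted p = 0.0591). Fasn averaged 12.04 ± 0.0492 FPKM in CTX-treated GFP+ cells and 21.7 ± 3.72 FPKM in untreated GFP+ cells (SD, n = 2 each), a log2 change of -0.79 (SE 0.28, adjusted p = 0.113). Acly averaged 41.5 ± 0.805 FPKM in CTX-treated GFP+ cells and 51.7 ± 12.01 FPKM in untreated GFP+ cells (SD, n = 2 each), a log2 change of -0.29 (SE 0.27, adjusted p = 0.517).

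Set against each untreated GFP+ sample, the size of the difference varied with the sample. CTX-treated minus untreated GFP+ replicate 1 gave a median of -1.35 over the 32 genes (31 lower, against 16.9% of all features), against a median of 0.43 over all features. CTX-treated minus untreated GFP+ replicate 2 gave -0.42 (27 lower, against 41.7% of all features), against 0.08. After scaling these medians were -1.93 and -0.54, and 30 genes (93.8%) against replicate 1 were lower by more than 1 (3.52% of all features), and 1 (3.12%) against replicate 2 (1.73% of all features). The shared number was not shown to pair the samples.

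Against untreated RFP+ cells, treated GFP+ cells differ in both colour and treatment. All 32 genes had a lower mean in the treated cells, with a median log2 change of -1.27 (0.01 over all features), and 30 (93.8%) had both treated samples below both untreated ones, against 37.7% of all features (after scaling also 30, against 43.4%). None had both treated samples above both untreated ones, against 39.5%. By limma 6 genes fell (18.8%, against 5.99% of all features called lower) and 0 rose (against 11%). Those that fell were Lbr, Srebf1, Srebf2, Acaca, Fasn and Elovl6. No mevalonate enzyme was called, although all 7 had both treated samples below both untreated ones. Their median log2 change was -1.59 (range -1.80 to -1.27). At an unadjusted p under 0.05, 21 genes were lower (65.6%, against 15% of all features). Scap and Acss2 overlapped.

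Elovl6 averaged 8.31 ± 0.261 FPKM in CTX-treated GFP+ cells and 35.7 ± 22.7 FPKM in untreated RFP+ cells (SD, n = 2 each), with a log2 change of -1.83 (SE 0.47, adjusted p = 0.0415 by limma). Srebf2 averaged 36.02 ± 0.821 FPKM in CTX-treated GFP+ cells and 91.9 ± 28.2 FPKM in untreated RFP+ cells (SD, n = 2 each), a log2 change of -1.29 (SE 0.25, adjusted p = 0.0179). Fasn averaged 12.04 ± 0.0492 FPKM in CTX-treated GFP+ cells and 31.2 ± 12.1 FPKM in untreated RFP+ cells (SD, n = 2 each), a log2 change of -1.25 (SE 0.28, adjusted p = 0.0272). In each the highest treated sample was below the lowest untreated RFP+ sample. Acaca averaged 11.01 ± 0.0964 FPKM in CTX-treated GFP+ cells and 25.6 ± 6.64 FPKM in untreated RFP+ cells (SD, n = 2 each), a log2 change of -1.13 (SE 0.21, adjusted p = 0.0169). Srebf1 averaged 31.6 ± 1.22 FPKM in CTX-treated GFP+ cells and 69.2 ± 16.99 FPKM in untreated RFP+ cells (SD, n = 2 each), a log2 change of -1.08 (SE 0.20, adjusted p = 0.0166). Lbr averaged 11.6 ± 0.549 FPKM in CTX-treated GFP+ cells and 24.3 ± 3.25 FPKM in untreated RFP+ cells (SD, n = 2 each), a log2 change of -0.999 (SE 0.19, adjusted p = 0.0158). These groups did not overlap either. Hmgcs1 averaged 31.2 ± 0.6597 FPKM in CTX-treated GFP+ cells and 137 ± 120.2 FPKM in untreated RFP+ cells (SD, n = 2 each) and did not pass (log2 change -1.75, SE 0.77, adjusted p = 0.166). Insig1 averaged 14.6 ± 0.144 FPKM in CTX-treated GFP+ cells and 58.3 ± 44.4 FPKM in untreated RFP+ cells (SD, n = 2 each), a log2 change of -1.69 (SE 0.57, adjusted p = 0.08898). Acly averaged 41.5 ± 0.805 FPKM in CTX-treated GFP+ cells and 77.3 ± 26.1 FPKM in untreated RFP+ cells (SD, n = 2 each), a log2 change of -0.84 (SE 0.27, adjusted p = 0.0804). After scaling Elovl6 no longer passed (-1.90, adjusted p = 0.0673) and the other 5 did (15.6%, against 16.2% of all features), so the share of members called was then near the background. All calls of members were lost when either CTX-treated GFP+ sample was left out, and when untreated RFP+ replicate 1 was. Some members were still called without untreated RFP+ replicate 2. A group then held 1 sample, so only the size of the change is given here. The median log2 change of the 32 genes was -1.28 without CTX-treated GFP+ replicate 1 and -1.28 without CTX-treated GFP+ replicate 2. It was -0.69 without untreated RFP+ replicate 1 and -1.87 without untreated RFP+ replicate 2, so its size varied with the untreated RFP+ sample kept.

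Between the untreated colours most of the 32 genes differed less than between replicates. The comparison asks how EMT-labelled cells differed from the rest of the untreated culture. The median log2 change was -0.37, against -0.24 over all features, with 31 of 32 negative, and after scaling it was -0.11, against -0.01, with 27 negative. By limma 0 genes were higher or lower, as deposited and scaled, where 0.115% of all features were called higher and 1.78% lower as deposited, and 1.02% and 1.96% after scaling. At an unadjusted p under 0.05, 1 gene was lower, Acaca (3.12%, against 15.7% of all features), and 0 were higher (against 1.96%). In 4 genes (12.5%, against 41.5% of all features) both untreated GFP+ samples lay below both untreated RFP+ samples, namely Lbr, Srebf1, Scap and Acaca, and after scaling this held for Scap alone (3.12%, against 20.2%). None had both untreated GFP+ samples above both untreated RFP+ samples, against 4.95%. In 24 of the 32 genes the replicate difference within each colour exceeded the difference between the colours.

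Of the genes followed in every comparison, Acly averaged 51.7 ± 12.01 FPKM in untreated GFP+ cells and 77.3 ± 26.1 FPKM in untreated RFP+ cells (SD, n = 2 each), with a log2 change of -0.55 (SE 0.27, adjusted p = 0.327 by limma). Fasn averaged 21.7 ± 3.72 FPKM in untreated GFP+ cells and 31.2 ± 12.1 FPKM in untreated RFP+ cells (SD, n = 2 each), a log2 change of -0.46 (SE 0.28, adjusted p = 0.3904). Srebf1 averaged 52.5 ± 0.6102 FPKM in untreated GFP+ cells and 69.2 ± 16.99 FPKM in untreated RFP+ cells (SD, n = 2 each), a log2 change of -0.37 (SE 0.20, adjusted p = 0.358). None of these passed. Srebf2 averaged 69.8 ± 12.9 FPKM in untreated GFP+ cells and 91.9 ± 28.2 FPKM in untreated RFP+ cells (SD, n = 2 each), a log2 change of -0.37 (SE 0.25, adjusted p = 0.431). Hmgcs1 averaged 101 ± 82.1 FPKM in untreated GFP+ cells and 137 ± 120.2 FPKM in untreated RFP+ cells (SD, n = 2 each), a log2 change of -0.36 (SE 0.77, adjusted p = 0.802). Insig1 averaged 43.4 ± 22.7 FPKM in untreated GFP+ cells and 58.3 ± 44.4 FPKM in untreated RFP+ cells (SD, n = 2 each), a log2 change of -0.28 (SE 0.57, adjusted p = 0.794). For Hmgcs1 and Insig1 the standard error exceeded the change, and the sign turned when untreated RFP+ replicate 1 or untreated GFP+ replicate 2 was left out. Compared within replicate 1, untreated GFP+ was below untreated RFP+ in 32 genes, against 89.8% of all features (median -0.53, against -0.46 over all features). Within replicate 2 it was below in 28 genes, against 54.8% of all features (median -0.24, against -0.03). After scaling the replicate 1 count was 19, against 54.5% of all features (median -0.04, against -0.02). The scaled replicate 2 count was 28, against 50.8% of all features (median -0.21, against -0.0045).

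**Figure D4:**
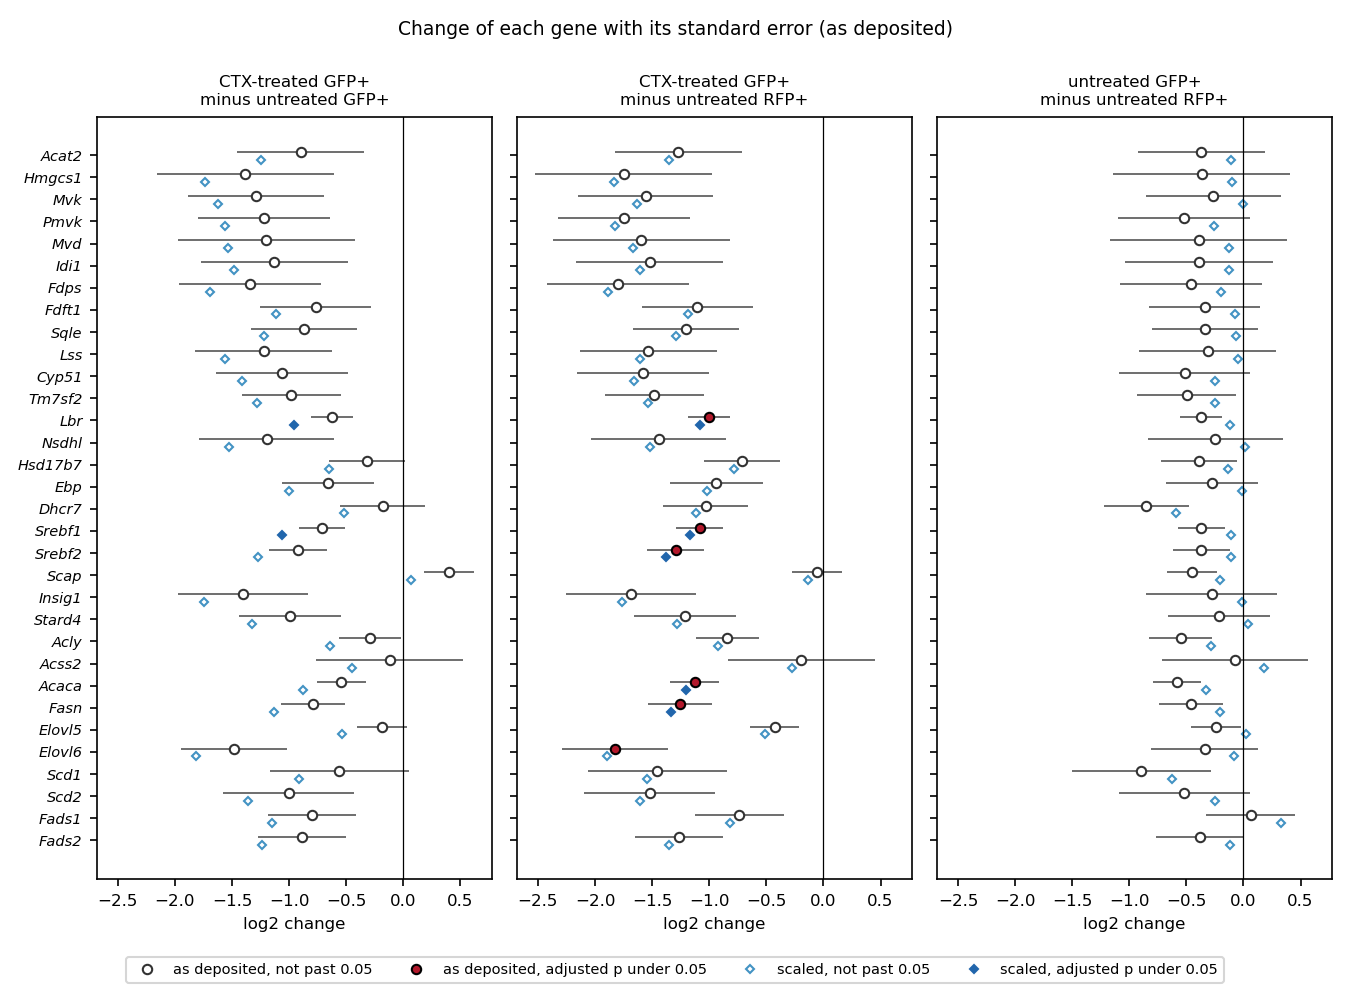
Log2 change of each of the 32 genes (rows) in the 3 comparisons (panels), with circles and standard error bars for the values as deposited and diamonds for the values after median-ratio scaling, and filled symbols past an adjusted p of 0.05. Filled circles stand only in the panel of CTX-treated GFP+ minus untreated RFP+ cells, for 6 genes, and filled diamonds also mark Lbr and Srebf1 in the panel against untreated GFP+ cells.

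Few further genes of sterol and fatty acid synthesis passed the test. Of 13 tested further genes of the sterol pathway, 2 rose in CTX-treated against untreated GFP+ cells (15.4%, against 12.3% of all features) and 0 fell (against 0.474%), with a median log2 change of -0.18, against 0.25 over all features. These were Ggps1, which makes geranylgeranyl pyrophosphate, and Insig2, the INSIG gene that is not driven by SREBP in the way of Insig1. Insig2 was at 26.2 and 27.03 FPKM in CTX-treated GFP+ cells, 13.8 and 16.2 FPKM in untreated GFP+ cells, and 20.2 and 14.9 FPKM in untreated RFP+ cells (log2 change 0.79, SE 0.20, adjusted p = 0.0486, by limma against untreated GFP+). Ggps1 was at 18.1 and 18.9 FPKM in CTX-treated GFP+ cells, 8.11 and 10.97 FPKM in untreated GFP+ cells, and 12.3 and 9.801 FPKM in untreated RFP+ cells (log2 change 0.90, SE 0.21, adjusted p = 0.0382). Insig2 thus lay highest in the samples where Insig1 lay lowest, although its call was lost after scaling (0.46, adjusted p = 0.116). After scaling 1 of the 13 rose, Ggps1, against 11% of all features. Pdss1 and Mbtps2 were the 2 that fell (log2 changes -0.57 and -0.49, limma adjusted p = 0.0244 and 0.0312), against 8.04% of all features. Against untreated RFP+ cells 2 of the 13 fell (15.4%, against 5.99% of all features) and 0 rose (against 11%), and 0 of these 2 calls were kept after scaling. Pdss1 and Mbtps2 were then the 2 that fell (against 16.2% of all features) and Ggps1 the 1 that rose (against 15%). Of 25 further fatty acid genes, Acsl4, which activates arachidonate, was the 1 gene that rose (4.0%, against 12.3% and 11% of all features) against untreated GFP+ and against untreated RFP+ cells (log2 changes 0.78 and 0.76, limma adjusted p = 0.0382 and 0.0335), the first call being lost after scaling (0.43, adjusted p = 0.133). Elovl7, another elongase, was lower in untreated GFP+ than untreated RFP+ cells (log2 change -1.42, SE 0.18, adjusted p = 0.0184; after scaling -1.20, adjusted p = 0.0652), and with Tecr (log2 change -1.10, SE 0.30, adjusted p = 0.04996) it fell in CTX-treated GFP+ against untreated RFP+ cells (8.0% of the 25, against 5.99% of all features). The call of Tecr was lost after scaling (-1.19, adjusted p = 0.0888).

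Some genes of a wider sterol handling list were called higher in treated cells. LXR receptors bind oxysterols and drive sterol export, and 16 genes of the receptors, their targets, sterol export and sterol storage were tested. The list also holds lipoprotein receptors and enzymes that make oxysterols, so it is wider than LXR targets. Abcg1 and Cyp27a1 reached the filter in the CTX samples alone, so their calls were bound to be higher there and are left out of the counts. Of the other 14, 5 rose in CTX-treated against untreated GFP+ cells (35.7%, against 12.3% of all features) and 0 fell, with a median log2 change of 0.66, against 0.25 over all features. After scaling 4 of the 5 passed. The LXR receptor genes Nr1h2 and Nr1h3 did not pass as deposited (log2 changes 0.20 and 0.62, limma adjusted p = 0.599 and 0.109). Activity of the receptors was not tested. Ch25h, which makes 25-hydroxycholesterol, was at 8.12 and 7.16 FPKM in CTX-treated GFP+ cells, 0.979 and 1.197 FPKM in untreated GFP+ cells, and 1.35 and 3.18 FPKM in untreated RFP+ cells (log2 change 2.05, SE 0.28, adjusted p = 0.00689, by limma against untreated GFP+). Abca1, the cholesterol exporter, was at 9.04 and 9.17 FPKM in CTX-treated GFP+ cells, 1.804 and 3.69 FPKM in untreated GFP+ cells, and 1.97 and 2.07 FPKM in untreated RFP+ cells (log2 change 1.48, SE 0.26, adjusted p = 0.0159). Vldlr, a lipoprotein receptor, was at 11.98 and 12.01 FPKM in CTX-treated GFP+ cells, 3.29 and 6.03 FPKM in untreated GFP+ cells, and 3.72 and 4.01 FPKM in untreated RFP+ cells (log2 change 1.24, SE 0.25, adjusted p = 0.026). For all 3 the treated samples were above every untreated sample. Against untreated RFP+ cells 6 of the 14 rose (42.9%, against 11% of all features) and 0 fell, and 5 of the 6 passed after scaling. They were led by Lrp1, Abca1 and Ch25h (log2 changes 1.75, 1.74 and 1.46; limma adjusted p = 0.0224, 0.00758 and 0.0175). Between the untreated colours 0 of these genes passed in limma, and 0 had an unadjusted p under 0.05.

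Of 9 tested genes of triglyceride synthesis and lipid droplets, 3 rose in CTX-treated against untreated GFP+ cells (33.3%, against 12.3% of all features) and 0 fell, with a median log2 change of 0.67, against 0.25 over all features. After scaling 2 rose (against 11% of all features) and 1 fell (against 8.04%). Dgat2, which makes triglyceride, was at 9.13 and 8.45 FPKM in CTX-treated GFP+ cells, 1.65 and 1.34 FPKM in untreated GFP+ cells, and 2.42 and 1.72 FPKM in untreated RFP+ cells (log2 change 1.97, SE 0.19, adjusted p = 0.00225, by limma). Plin2, a coat protein of lipid droplets, was at 157 and 157 FPKM in CTX-treated GFP+ cells, 47.3 and 74.8 FPKM in untreated GFP+ cells, and 56.1 and 74.8 FPKM in untreated RFP+ cells (log2 change 1.39, SE 0.26, adjusted p = 0.0197). Pnpla2, the triglyceride lipase, was at 15.4 and 16.4 FPKM in CTX-treated GFP+ cells, 8.27 and 8.16 FPKM in untreated GFP+ cells, and 19.6 and 18.8 FPKM in untreated RFP+ cells (log2 change 0.87, SE 0.16, adjusted p = 0.0187; after scaling 0.55, adjusted p = 0.0754). Dgat2 and Plin2 were above all untreated samples, while Pnpla2 stayed below the untreated RFP+ samples and was lower in untreated GFP+ than in untreated RFP+ cells (log2 change -1.13, SE 0.16, adjusted p = 0.0235; after scaling -0.88, adjusted p = 0.0688). Against untreated RFP+ cells Dgat2 and Plin2 rose (22.2%, against 11% of all features). Gpam, which starts glycerolipid synthesis, fell (log2 change -0.66, SE 0.16, limma adjusted p = 0.0366), or 11.1% against 5.99% of all features. After scaling 4 of the 9 rose (against 15% of all features) and 2 fell (against 16.2%). Of 14 fatty acid oxidation genes only Ppard, a nuclear receptor of fatty acids, rose in limma in both CTX comparisons (7.14%, against 12.3% and 11% of all features; log2 changes 1.10 and 0.90, adjusted p = 0.00820 and 0.0134), and 0 fell as deposited. After scaling Acadm, an acyl-CoA dehydrogenase, fell in both (log2 changes -0.45 and -0.38, adjusted p = 0.0373 and 0.03997 by limma), where 8.04% and 16.2% of all features fell. Markers of other lipid-rich cells were read beside these genes. The adipocyte genes Lep and Cfd were at 0 in all samples, and the 8 adipocyte markers summed to 5.27 to 6.08 FPKM in CTX-treated GFP+, 1.87 to 3.34 in untreated GFP+ and 2.57 to 3.47 in untreated RFP+ cells. The macrophage genes Emr1 and Tyrobp were at 0 in all samples, and the 8 macrophage markers summed to 162 to 168 FPKM in CTX-treated GFP+, 118 to 128 in untreated GFP+ and 210.1 to 210.8 in untreated RFP+ cells, most of it Cd14. Cd68, a lysosomal membrane protein used as a macrophage marker, averaged 30.4 ± 0.813 FPKM in CTX-treated GFP+ cells and 4.65 ± 2.34 FPKM in untreated GFP+ cells (SD, n = 2 each), a log2 change of 2.54 (SE 0.29, adjusted p = 0.00376).

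**Figure D5:**
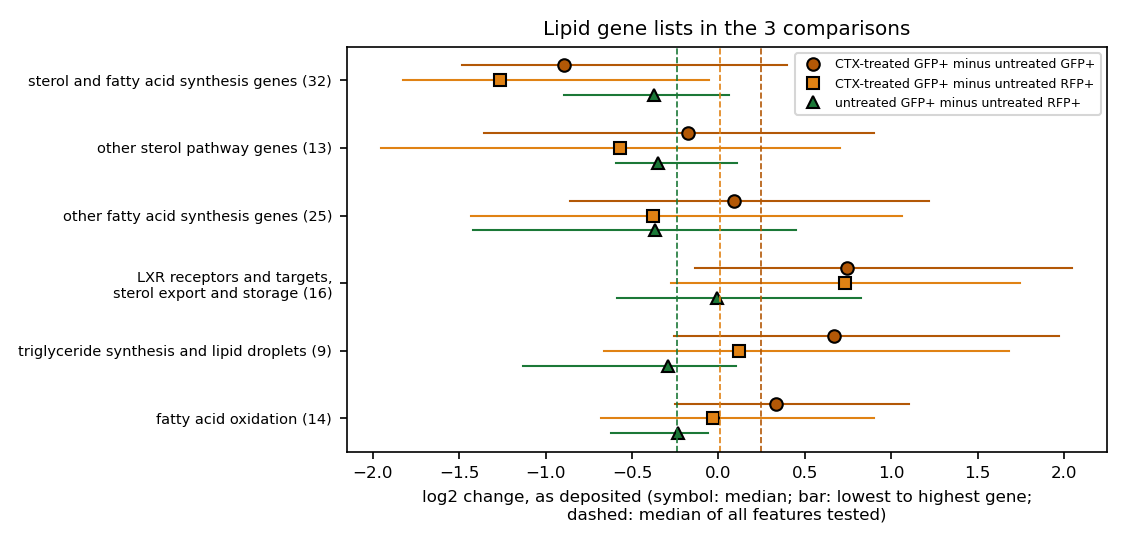
Median (symbol) and range (bar) of the log2 change as deposited in 6 lists of lipid genes, with the number tested in parentheses, for the 3 comparisons, and the median of all features tested as dashed lines. The 32 synthesis genes lie left of the dashed line in both CTX comparisons (medians -0.89 and -1.27), and the LXR and sterol export list lies right of it (0.74 and 0.73 over all 16, and 0.66 and 0.73 without Abcg1 and Cyp27a1).

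As a description of likeness, the features with a mean FPKM of at least 10 were ranked by Pearson's r with Insig1 over the 6 samples of log2(FPKM + 1). Among the 5 closest of 6581 were the members Lss (r = 0.995), Stard4 (0.994) and Fdps (0.991). Among the 5 closest to Fasn were Pgp (0.998), Rnf145 (0.996), Ryk (0.995) and Ict1 (0.994), none of them a member. The 6 samples share the order described, so these values are a description only and carry no test.

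Some levels may hold reads of a neighbour. The library kit does not mark strand, and in the GRCm38 annotation exons of 8 members overlap an exon on the other strand. The longest overlaps were between Fdft1 and Ctsb (774 bases), Hmgcs1 and Gm48342 (458 bases), and Idi1 and Gm48574 (323 bases), and the reads of such partners cannot be told apart.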

How the data were processed

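RNA from sorted Tri-PyMT cells was sequenced from TruSeq RNA libraries, a kit that does not mark strand, per the labels' protocols. The deposited values are FPKM, made by the authors for 30743 features in 6 samples. The submitters' processing notes name the mm9 build and TopHat, Cufflinks, HTSeq, FastQC and CASAVA 1.8.2, with settings not given in the sources used here. The table's fold column, all division errors, was left out.

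From the deposited FPKM, log2(FPKM + 1) was computed, and the 13080 features that reached an FPKM of 1 in 2 or more samples were fitted in limma 3.58.1 (R 4.3.3) with moderated variances and an intensity trend. All 6 samples shared 1 model (3 residual degrees of freedom). Tests were two-sided with Benjamini-Hochberg adjustment over all features and a threshold of 0.05. A fold change on this scale understates the change of low genes. The procedure was run on simulated data with independent noise and, for each gene, the same spread in all 6 samples. Those data lacked the unequal spread of the groups and the replicate difference shared by the untreated colours. Both comparisons with CTX-treated cells share those samples, and untreated GFP+ and untreated RFP+ cells each enter 2 of the 3 comparisons, so these are not independent.

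The members and lists were chosen with earlier results of these data known. Every member was described by its FPKM, and a test was printed for members past the threshold as deposited or after scaling, and for Hmgcs1, Insig1, Srebf1, Srebf2, Fasn and Acly. Up to 3 genes per further list and direction were named, by size, as were the LXR receptor genes. Some pathway genes outside the members are counted but not named. The letters of the sterol element were shortened after a longer form had been searched. Alternatives were median-ratio scaling, quantile normalization, another pseudocount, other filters, only the samples compared, a replicate block and leaving out each sample. A block in the 4 samples compared, a block with scaling, and averaging the CTX pair were added after seeing the data. Plots used Python 3.11.15 and matplotlib 3.10.9.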

Additional observations from a re-analysis of the deposited data

How the results depend on the processing

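The count of members lower in CTX-treated GFP+ minus untreated RFP+ cells was 6 as deposited, against 784 of all 13080 features. Under scaling, quantile normalization, another pseudocount, other filters and a fit of the 4 samples compared, calls over all features ran from 552 to 2350. Under these settings the member count stayed between 4 and 7. It was 0 with the CTX pair averaged, and 0 to 7 with 1 replicate left out. In CTX-treated minus untreated GFP+ cells, 0 members were lower as deposited (62 of all 13080 features). The count was 2 after median-ratio scaling (1052 of all features) and 3 after quantile normalization (1477 of all features). In untreated GFP+ minus untreated RFP+ cells, 0 members were lower as deposited and 0 to 1 with 1 replicate left out. The change of Hmgcs1 there ran from -1.40 to 0.67 with 1 replicate left out, and that of Insig1 from -1.13 to 0.57, and Insig1 was at 0.0105 after quantile normalization. The labels do not say that replicate numbers pair samples, and the deviations of same-numbered samples correlated over all features with r = 0.315 between the untreated colours, but with -0.0352 and -0.108 between CTX-treated GFP+ cells and untreated RFP+ and untreated GFP+ cells. Over the 32 genes r was 0.93 between the untreated colours. It was -0.239 between CTX-treated GFP+ and untreated RFP+ cells, and -0.187 between CTX-treated and untreated GFP+ cells. The numbers were not taken to pair the samples in the main tests. The tests between the untreated colours thus count a replicate difference that both colours share in these genes as spread. With a replicate block, 29 members were lower in CTX-treated GFP+ minus untreated RFP+ (1303 of all 13080 features), 23 in CTX-treated minus untreated GFP+ (281) and 2 in untreated GFP+ minus untreated RFP+ cells (764). With a replicate block in only the 4 samples compared these counts were 21 (1629 of all features), 22 (208) and 0 (499), and with a replicate block and median-ratio scaling 14 (2595), 6 (1406) and 0 (302). A block fits 1 replicate difference for all groups in the model. The median difference over the 32 genes was 1.02 in untreated GFP+, 1.35 in untreated RFP+ and 0.01 in CTX-treated GFP+ cells. The block therefore does not describe the CTX pair, and its counts in the CTX comparisons rest on that poor match. The cause of these moves was not tested. Depth is unknown, so counting error could not be given, and 2 samples a group limit what could be called.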
